A study of Rattus norvegicus with 48 samples.

Results

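The glomerulus, the filter at the head of the nephron, was compared with the 3 tubule regions behind it by small RNA sequencing of rat kidney. The 11 libraries compared, of 12 in the series, were chosen by their labelled kidney region and rat. They comprise 2 glomerulus libraries (rats 1 and 3) and 3 libraries each (rats 1, 2 and 3) of the proximal tubule, the thick ascending limb (labelled Thick Henle Loop) and the collecting duct. All of the tissue came from 3 untreated (naive) male Sprague Dawley rats aged 6 months, and regions were cut by laser from frozen sections of 8 µm. Each library was run on 4 flow cells, so that 44 of 48 runs were used. The other 4 runs belong to a further glomerulus library, also labelled rat 3, that the submitters marked as removed from their analysis, and it is not analysed here. Tubule regions had been found by immunofluorescence (glutathione S-transferase, Tamm-Horsfall protein and aquaporin-2) and glomeruli by a histochemical stain. The kind of staining and the region therefore cannot be told apart.

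A glomerulus is a tuft of fenestrated capillaries held together by mesangial cells, which are contractile and related to smooth muscle, and wrapped by podocytes. The tubule regions are tubes of transporting epithelium with a basement membrane, and capillaries run between them. A miRNA is a short RNA that guides the silencing complex to messenger RNAs, mainly through its seed, bases 2 to 8 counted from the 5′ end. The miR-200 family holds epithelial cells in their state by repressing the transcription factors Zeb1 and Zeb2, miR-126 is a miRNA of endothelium, and miR-143 and miR-145 mark smooth muscle and related cells.

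The deposited values are read counts normalized by the authors with the TMM method, for 188 mature miRNAs. A value below is a library's mean over its 4 runs. Pairs of values are given in the order rat 1, rat 3 for the glomerulus, and triplets in the order rat 1, rat 2, rat 3 for a tubule region. The glomerulus libraries stood apart from each other: values were higher in rat 1 than in rat 3 for 137 of 188 miRNAs and lower for 29, with a median log2 difference of 1.04. From the steps between low values, 807909 reads were estimated behind the miRNAs in the glomerulus of rat 1 and 147996 in that of rat 3, against 218882 to 1296995 in the tubule libraries. The summed values were 165055 and 77457 in the glomerulus and 115865 to 255518 in the tubules. In the glomerulus 30 miRNAs of rat 1 and 51 of rat 3 were at 0 in every run, against 7 to 36 in a tubule library.

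Both glomerulus libraries lay beyond all 9 tubule libraries for 30 of 188 miRNAs (16.0%), called separated below. Of these, 12 (6.38%) were higher in the glomerulus and 18 (9.57%) lower. The higher miRNAs included miR-126a-5p, known from endothelium, and miR-143-3p and miR-145-5p, known from mesangial and smooth muscle cells. Also higher were a pair from an X-linked cluster (miR-450a-5p with miR-351-5p) and miR-149-5p. The lower ones included miR-182 and its neighbour miR-3553, miR-375-3p, 4 members of the miR-200 family, miR-31a-5p and miR-672-5p. A fit across all 188 miRNAs (limma, log2(value + 1), glomerulus minus the mean of the 3 tubule regions at equal weight, rat as a block) called 37 miRNAs (19.7%) at a Benjamini-Hochberg adjusted p below 0.05, with 9 (4.79%) higher and 28 (14.9%) lower. Both criteria were met by 25 miRNAs, of which 8 were higher and 17 lower. Over all 188 miRNAs the median difference was −0.56 on the log2 scale. In these captured samples, fewer cells of a type and less RNA per cell cannot be told apart.

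**Figure D1:**
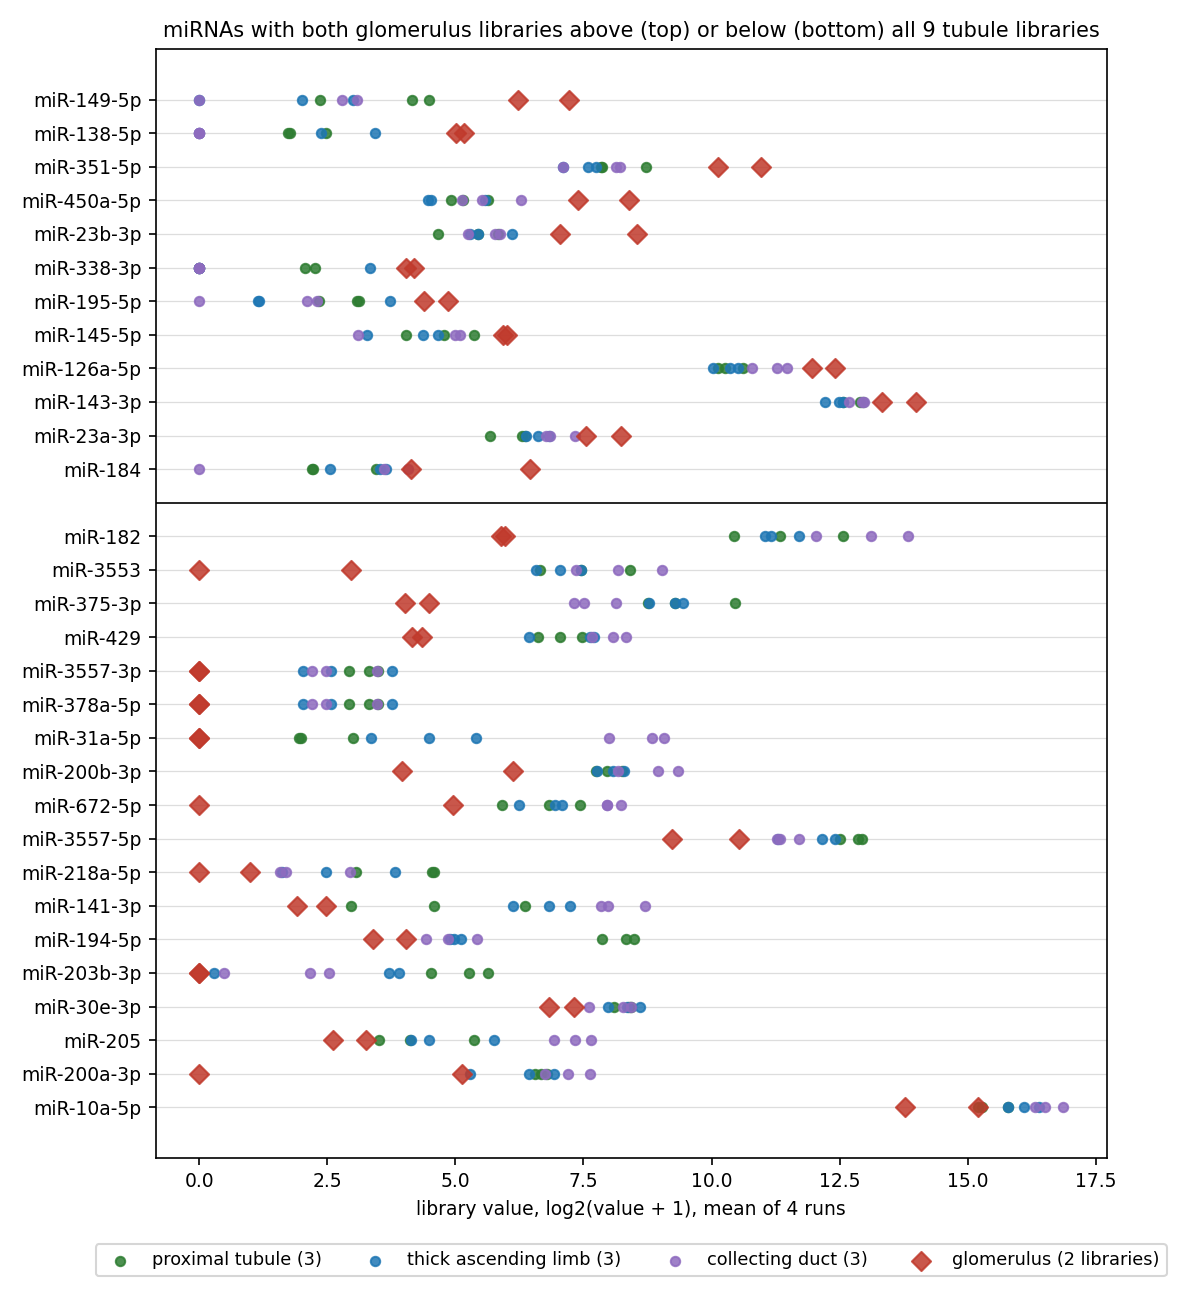
Library values, as log2(value + 1) averaged over 4 runs, of the 30 separated miRNAs, ordered by the gap between the nearest glomerulus and tubule libraries. Diamonds are the 2 glomerulus libraries and circles the 9 tubule libraries, and the gap narrows from 1.73 to 0.07 among the 12 higher miRNAs and from 4.46 to 0.01 among the 18 lower ones.

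These counts depended on which glomerulus library was used. With the glomerulus of rat 3 alone, which leaves a lone sample assumed to vary like the other groups, limma called 3 miRNAs higher and 69 lower, and 16 lay above and 72 below all tubule libraries. With the glomerulus of rat 1 alone it called 11 higher and 15 lower, and 37 lay above and 21 below. Without the proximal tubule library of rat 3 limma called 18 lower, and without the thick ascending limb library of rat 3 it called 17. When limma was allowed to weight libraries by their scatter, each glomerulus library had a weight of 0.248 and 1 higher and 11 lower calls were left. The values of each rat are therefore given beside the results.

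The sequences of the miRNAs on which the results turn are shown with the seed in capitals, 5′ to 3′, as RefSeq gives them for the build GRCr8. RefSeq sequences were matched to 172 of the 188 miRNAs by name, and to 26 of the 30 separated ones. Not matched were miR-200a-3p, miR-200b-3p, miR-429 and miR-30e-3p. The first set is of miRNAs higher in the glomerulus and shows which of them share a seed.
miR-149-5p: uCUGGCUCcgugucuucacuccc
miR-138-5p: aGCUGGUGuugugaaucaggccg
miR-126a-5p: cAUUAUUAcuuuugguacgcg
miR-450a-5p: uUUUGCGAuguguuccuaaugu
miR-351-5p: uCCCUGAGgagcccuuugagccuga
miR-23a-3p: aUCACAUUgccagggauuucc
miR-23b-3p: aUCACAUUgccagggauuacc

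Among these only miR-23a-3p and miR-23b-3p had a seed in common, and over their 21 bases they differed by the substitution U19A (miR-23a-3p first, counted from the 5′ end). The seed of miR-351-5p is also that of miR-125a-5p and miR-125b-5p, which overlapped the tubule range and are shown for comparison.
miR-125a-5p: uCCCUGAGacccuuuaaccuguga
miR-125b-5p: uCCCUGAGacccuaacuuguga

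The second set is of miRNAs lower in the glomerulus. It is followed by the partners of miR-182 and miR-3553 in the cluster of miR-182, miR-183 and miR-96, to show how close these sequences are.
miR-182: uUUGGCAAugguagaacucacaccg
miR-375-3p: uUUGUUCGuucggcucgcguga
miR-141-3p: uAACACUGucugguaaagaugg
miR-31a-5p: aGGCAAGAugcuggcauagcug
miR-672-5p: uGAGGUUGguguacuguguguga
miR-3553: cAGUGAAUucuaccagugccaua
miR-183-5p: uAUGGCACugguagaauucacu
miR-96-5p: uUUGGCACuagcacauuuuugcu

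The seeds of miR-182 and miR-96-5p differ in their last base. Read in reverse complement, miR-3553 holds the whole of miR-183-5p, and RefSeq places both on the same bases of opposite strands, with miR-3553 at chr4:59756105-59756127 on the plus strand and miR-183-5p at chr4:59756106-59756127 on the minus strand (GRCr8). miR-183-5p is not analysed here.

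Among the higher miRNAs were some known from endothelium or from smooth muscle and related cells. Not all measured miRNAs of such cells were higher. miR-221-3p of the endothelial list (−1.60, which did not pass) and miR-199a-3p, a miRNA of mesenchyme (−2.69), had differences below 0. miR-126a-5p, made from an intron of the endothelial gene Egfl7, had values of 5449 and 3997 in the glomerulus and of 1122, 1228 and 1573 in the proximal tubule, 1458, 1046 and 1308 in the thick ascending limb and 2489.8, 2858 and 1759.9 in the collecting duct. Both glomerulus libraries were above the highest tubule library, that of the collecting duct of rat 2. Its difference was 1.57 ± 0.45 (adjusted p = 0.0054) on the log2 scale, and 1.77 in rat 1 and 1.37 in rat 3. The call was lost when the proximal tubule or the thick ascending limb was left out of the tubule mean (1.45, adjusted p = 0.076 and 1.48, adjusted p = 0.052, in that order). The other arm of the same hairpin, miR-126a-3p, had values of 840.4 and 302, with 128, 148 and 228 in the proximal tubule, 174, 112 and 153 in the thick ascending limb and 222, 313 and 175 in the collecting duct. Here the glomerulus of rat 3 was within the tubule range, under the collecting duct library of rat 2. limma called it higher by 1.50 ± 0.52 (adjusted p = 0.027), and without the glomerulus of rat 1 its difference was 0.70 (adjusted p = 0.26). The call was also lost without the proximal tubule of rat 1 or rat 2, the thick ascending limb of rat 1 or the collecting duct of rat 1 or rat 3, with adjusted p-values up to 0.078. In all it was lost in 14 of 30 alternatives, among them a tubule mean without each of the 3 regions in turn.

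miR-143-3p and miR-145-5p, which keep smooth muscle cells in their contractile state, are encoded 1340 bases apart. miR-143-3p had values of 16324 and 10321 in the glomerulus, against 6093, 7597 and 7992 in the proximal tubule, 5720.4, 4760.1 and 6069 in the thick ascending limb and 6604, 7819.9 and 8072 in the collecting duct. The glomerulus of rat 1 stood well above every tubule library and that of rat 3 slightly above. The difference of 0.95 ± 0.46 (adjusted p = 0.13) did not pass, and it was 1.41 in rat 1 and 0.49 in rat 3. miR-145-5p had values of 64.0 and 60.9 in the glomerulus, nearly alike in both rats, against 26.5, 17.8 and 41.8 in the proximal tubule, 15.0, 20.5 and 25.0 in the thick ascending limb and 30.7, 33.3 and 8.01 in the collecting duct. It too was above every tubule library, and its difference of 1.61 ± 0.78 (adjusted p = 0.13) did not pass.

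Both measured members of this pair were thus separated and neither passed limma. With the glomerulus of rat 1 alone, miR-143-3p was called higher (1.41, adjusted p = 0.0075), and both were called when libraries were rescaled by median of ratios (1.45, adjusted p = 4.6e-05 and 2.11, adjusted p = 0.027, in that order). Without the rat as a block miR-143-3p was called as well (0.96, adjusted p = 0.041).

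The cluster of miR-322, miR-503, miR-351 and miR-450a on the X chromosome, best known from cells that leave the cell cycle during differentiation, had 3 measured members. miR-351-5p (chrX:137725157-137725181, minus strand, GRCr8), which occurs in rodents, had values of 1999 and 1117 in the glomerulus, against 229, 421 and 232 in the proximal tubule, 139, 193.7 and 214.1 in the thick ascending limb and 137, 279 and 295 in the collecting duct. Both glomerulus libraries exceeded the highest tubule library, the proximal tubule of rat 2, by a wide gap. The difference was 2.90 ± 0.50 (adjusted p = 1.4e-07), a 7.47-fold higher value on the log2(value + 1) scale. It was 3.61 in rat 1 and 2.19 in rat 3, and limma called it in each of 30 alternatives.

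miR-450a-5p (chrX:137720985-137721006, minus strand), 4172 bases away, had values of 334 and 170.5 in the glomerulus, against 29.8, 49.0 and 34.9 in the proximal tubule, 21.4, 22.3 and 47.5 in the thick ascending limb and 34.2, 45.6 and 76.9 in the collecting duct. No tubule library came near the glomerulus of either rat. The difference was 2.64 ± 0.66 (adjusted p = 0.00082), and with the glomerulus of rat 3 alone it no longer passed (1.74, adjusted p = 0.052). The third member, miR-322-5p, lies 1041 bases from miR-351-5p and had values of 25.6 and 5.66 in the glomerulus, on both sides of the tubule median of 7.88. Its difference of 0.67 ± 0.98 (adjusted p = 0.70) did not pass.

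The other measured miRNAs with the seed of miR-351-5p, from the miR-99/100 and miR-125 clusters, were not separated. miR-125a-5p had values of 3255 and 981 in the glomerulus against 1976 to 4573 (median 2706) in the tubules, and a difference of −0.67 ± 0.45 (adjusted p = 0.32). miR-125b-5p had values of 186 and 70.3 against 154 to 322 (median 203), and a difference of −0.80 ± 0.53 (adjusted p = 0.31). In both the glomerulus of rat 1 was within the tubule range and that of rat 3 below it.

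The miR-23/27/24 cluster exists in 2 copies, each transcribed as a unit, and the copies have been studied in blood vessel growth. Averaged over both glomerulus libraries, all 7 measured members had a difference above 0, also under the 3 other scalings described below, against 31.9% of all 188 miRNAs. limma called 1 of the 7, and the list's median was 1.02 against −0.56 over all miRNAs. With the glomerulus of rat 3 alone miR-27a-3p was at −0.81 and miR-27b-5p at −0.71, and with that of rat 1 alone miR-24-2-5p was at −0.20. Without the proximal tubule in the tubule mean miR-27a-3p was at −0.33 (adjusted p = 0.81) and miR-24-2-5p at −0.14 (adjusted p = 0.92). Both, and miR-27b-5p, were also below 0 in some alternatives with a single flow cell or without a single proximal tubule library. miR-23b-3p, encoded within the gene Aopep, had values of 375 and 132 in the glomerulus, against 24.8, 57.3 and 44.7 in the proximal tubule, 68.1, 42.5 and 38.0 in the thick ascending limb and 37.8, 53.6 and 58.3 in the collecting duct. Both glomerulus libraries were above all tubule libraries, with that of rat 1 far higher than that of rat 3. Its difference was 2.37 ± 0.64 (adjusted p = 0.0026), and 1.52 (adjusted p = 0.078) with the glomerulus of rat 3 alone.

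miR-23a-3p, from the other copy, had values of 302 and 188 in the glomerulus, against 50.9, 80.9 and 81.1 in the proximal tubule, 114, 83.6 and 97.5 in the thick ascending limb and 108, 162 and 114 in the collecting duct. It was separated with a narrow gap to the collecting duct of rat 2, and its difference of 1.39 ± 0.57 (adjusted p = 0.072) did not pass. With the glomerulus of rat 1 alone it was called (1.81, adjusted p = 0.019). miR-23a-3p and miR-23b-3p differ by 1 base near the 3′ end, so that reads cut short there could be counted for either.

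The neighbours of the 2 miR-23 copies were less apart from the tubules. miR-27b-3p had values of 13077 and 7026 in the glomerulus, against 2726, 3194 and 3659 in the proximal tubule, 4452, 2817 and 4782 in the thick ascending limb and 7449, 7579.5 and 5003 in the collecting duct, and its difference of 1.10 ± 0.46 (adjusted p = 0.074) did not pass. The glomerulus of rat 3 lay under 2 collecting duct libraries. miR-27a-3p had values of 326 and 106 against 64.0 to 313 (median 184) in the tubules, with a difference of 0.17 ± 0.54 (adjusted p = 0.88). miR-24-3p, encoded in both copies, had values of 98.7 and 74.2, against 73.7 in the highest tubule library, the collecting duct of rat 3. It just missed separation, which was read from log2 values averaged over runs, where the glomerulus of rat 3 was lower by 0.01.

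The widest gap among the higher miRNAs was that of miR-149-5p, encoded within Gpc1, the gene of the heparan sulphate proteoglycan glypican 1. It had values of 149 and 73.7 in the glomerulus, against 16.8, 4.65 and 22.2 in the proximal tubule, 7.06, 0 and 3.05 in the thick ascending limb and 7.78, 0 and 6.11 in the collecting duct. Tubule values were highest on average in the proximal tubule, and all stayed well under both glomerulus libraries. The difference was 3.48 ± 0.96 (adjusted p = 0.0034), with 3.82 in rat 1 and 3.13 in rat 3. limma called it whichever library was left out, and the call was lost only when libraries were weighted.

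miR-138-5p, best known from neurons, where it acts in dendritic spines, had values of 31.7 and 38.2 in the glomerulus, against 4.67, 2.42 and 3.34 in the proximal tubule and 5.14, 0 and 10.2 in the thick ascending limb. It was at 0 in all 3 collecting duct libraries and low in the other tubules, and both glomerulus libraries were at a like level. The difference of 3.42 ± 1.08 (adjusted p = 0.013) was lost with the glomerulus of rat 1 alone (3.40, adjusted p = 0.15) or of rat 3 alone (3.44, adjusted p = 0.053). It was also lost without the collecting duct in the tubule mean (2.58, adjusted p = 0.090) and on flow cell D alone (2.69, adjusted p = 0.15), in all in 5 of 29 alternatives. RefSeq lists a pair of genes for this sequence, and Mir138-2 lies within Slc12a3, the gene of the thiazide-sensitive sodium chloride transporter.

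The other higher miRNAs had low values. miR-338-3p, encoded within Aatk and known from oligodendrocytes, had values of 15.9 and 21.2 in the glomerulus and was at 0 in 6 of 9 tubule libraries, with 9.62 in the highest. Its difference was 3.18 ± 1.11 (adjusted p = 0.028), and it was lost with either glomerulus library alone, with adjusted p-values of 0.065 without rat 1 and 0.22 without rat 3. Leaving out the proximal tubule of rat 1 or the thick ascending limb of rat 3 also ended the call, at adjusted p-values of 0.085 and 0.083. So did leaving the proximal tubule (3.28, adjusted p = 0.063) or the collecting duct (2.72, adjusted p = 0.090) out of the tubule mean, and flow cell D alone (1.85, adjusted p = 0.35). The call was lost in 8 of 29 alternatives.

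miR-195-5p, a member of the miR-15/16 family that slows the cell cycle, had values of 28.6 and 20.5 in the glomerulus, against 8.20, 4.93 and 12.7 in the proximal tubule, 2.27, 1.55 and 12.7 in the thick ascending limb and 4.63, 4.52 and 0 in the collecting duct. It was above every tubule library without passing (2.43 ± 1.03, adjusted p = 0.083). Of the 5 measured miRNAs with its seed, the other 4 overlapped the tubule range, with differences of −0.08 for miR-16-5p, 0.67 for miR-322-5p, 0.35 for miR-497-5p and −2.69 for miR-15b-5p. None of the 4 passed limma.

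miR-184, known for its abundance in cornea and lens, had values of 88.1 and 16.7, which are far apart, against 0 to 16.0 (median 10.5) in the tubules. It was the nearest to overlap among the separated higher miRNAs, with a gap of 0.07, and miR-23a-3p followed with 0.21. The difference of 2.66 ± 0.96 (adjusted p = 0.035) was lost with either glomerulus library alone (adjusted p = 0.11 without rat 1 and 0.15 without rat 3). It was also lost without the proximal tubule or thick ascending limb of rat 1 or the collecting duct of rat 3, with adjusted p-values from 0.0502 to 0.101, on flow cell A or D alone, and with each of the 3 regions left out of the tubule mean in turn. In all, 13 of 30 alternatives ended the call.

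Of the lower miRNAs, miR-182 showed the widest gap. It belongs with miR-96 and miR-183 to a cluster (chr4:59752249-59752273 for miR-182, minus strand, GRCr8) known from the sensory epithelia of ear and eye. Its values were 58.9 and 62.6 in the glomerulus, nearly alike in both rats, against 1385, 2613 and 6072 in the proximal tubule, 2101, 3373 and 2299 in the thick ascending limb and 4192, 14580.1 and 8811 in the collecting duct. Every tubule library was far above the glomerulus, with a gap of 4.46 on the log2 scale, and the collecting duct was highest. The difference was −5.79 ± 0.45 (adjusted p = 2.5e-32), which is a 55.3-fold lower value, with −5.27 in rat 1 and −6.31 in rat 3.

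miR-3553 had values of 7.15 and 0 in the glomerulus, against 101, 174 and 342 in the proximal tubule, 94.7, 175 and 130.2 in the thick ascending limb and 162, 525 and 288 in the collecting duct. It was at 0 in every run of the glomerulus of rat 3, and its difference was −5.89 ± 0.60 (adjusted p = 5.2e-20), with −3.90 in rat 1 and −7.87 in rat 3. Because the pair miR-3553 and miR-183-5p lies on opposite strands of the same bases, and most such pairs in the table carry identical values, reads of the 2 strands cannot be told apart here. miR-96-5p, 204 bases from miR-3553, was at 0 in all glomerulus runs and had values of 0, 20.8 and 5.15 in the proximal tubule, 2.21, 6.58 and 5.60 in the thick ascending limb and 6.81, 28.4 and 49.6 in the collecting duct. A proximal tubule library was at 0 too, so that it overlapped the range, and its difference of −2.35 ± 1.05 (adjusted p = 0.10) did not pass.

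miR-375-3p, which restrains insulin secretion in pancreatic islets and is found in many epithelia, had values of 15.8 and 21.9 in the glomerulus, against 434, 625 and 1417 in the proximal tubule, 444, 696 and 627 in the thick ascending limb and 182.2, 281 and 158 in the collecting duct. It was lower than in any tubule library, and in contrast to miR-182 the collecting duct held the lowest tubule values. The difference was −4.43 ± 0.51 (adjusted p = 1.0e-15), with −4.34 in rat 1 and −4.53 in rat 3, and it was called in all alternatives.

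The miR-200 family had 5 measured members, of which 4 were separated and called lower and none was higher, against 14.9% called lower and 9.57% separated lower over all miRNAs. The list's median was −3.34, against −0.56 over all miRNAs. miR-429 had values of 19.8 and 18.4 in the glomerulus, against 132, 97.6 and 178 in the proximal tubule, 197, 86.5 and 207 in the thick ascending limb and 269, 322 and 203 in the collecting duct. Its difference was −3.34 ± 0.57 (adjusted p = 1.1e-07). miR-200b-3p, its cluster mate with a similar role, had values of 69.3 and 14.7, against 255, 214.7 and 310.4 in the proximal tubule, 271, 217 and 315 in the thick ascending limb and 494, 658 and 287 in the collecting duct. Both glomerulus libraries were lower than all tubule libraries, and for miR-200b-3p the library of rat 3 was far below that of rat 1. The difference of miR-200b-3p was −3.24 ± 0.52 (adjusted p = 1.8e-08), with −2.21 in rat 1 and −4.28 in rat 3.

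miR-200a-3p had values of 34.1 and 0 in the glomerulus, against 93.2, 109.7 and 102 in the proximal tubule, 88.1, 38.8 and 120.3 in the thick ascending limb and 147, 197 and 107 in the collecting duct. It was at 0 in every run of rat 3, while rat 1 lay just under the lowest tubule library, the thick ascending limb of rat 2. The difference of −4.19 ± 0.64 (adjusted p = 3.0e-09) was −1.60 (adjusted p = 0.064) with the glomerulus of rat 1 alone.

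miR-141-3p, from the second cluster of the family, had values of 4.71 and 2.89 in the glomerulus, against 23.4, 6.85 and 81.9 in the proximal tubule, 113, 69.5 and 149.6 in the thick ascending limb and 251, 418 and 229.7 in the collecting duct. Mean tubule values were lowest in the proximal tubule and highest in the collecting duct, and the gap to the glomerulus was set by the proximal tubule of rat 2. The difference was −4.61 ± 0.66 (adjusted p = 2.0e-10), and limma called it under all alternatives. Its separation was less stable. It held on 3 of the 4 flow cells alone and on 1 of the 4 other scales described below. The fifth member, the passenger strand miR-200b-5p, had values of 5.40 and 0 against 0 to 17.1 (median 8.07) and did not pass (−1.41 ± 1.03, adjusted p = 0.36).

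miR-203a-3p and miR-203b-3p come from overlapping hairpins on opposite strands; miR-203 limits proliferation in skin by repressing p63. miR-203a-3p had values of 0.0323 and 0.0735 in the glomerulus, against 40.7, 50.1 and 69.2 in the proximal tubule, 26.1, 14.1 and 52.0 in the thick ascending limb and 0, 11.5 and 16.0 in the collecting duct. It overlapped through a single tubule library at 0, the collecting duct of rat 1, and its difference was −4.24 ± 0.92 (adjusted p = 7.0e-05). miR-203b-3p was at 0 in all glomerulus runs and had values of 22.1, 38.4 and 52.5 in the proximal tubule, 0.254, 12.1 and 14.5 in the thick ascending limb and 5.07, 0.406 and 4.17 in the collecting duct. It was separated, but the lowest tubule libraries were under the value that 3 reads have in the glomerulus libraries, 0.723 in rat 1 and 1.83 in rat 3. Its difference of −3.18 ± 1.03 (adjusted p = 0.016) was lost with the glomerulus of rat 1 alone (−2.45, adjusted p = 0.22), without the thick ascending limb of rat 3 (−2.93, adjusted p = 0.055), without the collecting duct of rat 1 (−2.72, adjusted p = 0.066) and against the tubules other than the proximal (−2.23, adjusted p = 0.30). In all it was lost in 7 of 30 alternatives, flow cell D alone and quantile normalization among them.

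The differences of miR-194-5p and its neighbour miR-192-5p, miRNAs of liver, gut and proximal tubule that HNF1 factors induce, depended on the proximal tubule. miR-194-5p had values of 10.1 and 15.8 in the glomerulus, against 233, 360.4 and 323 in the proximal tubule, 35.4, 33.8 and 30.5 in the thick ascending limb and 21.4, 42.4 and 28.1 in the collecting duct. It was lower than every tubule library, by a narrow gap to the collecting duct of rat 1. The difference of −2.21 ± 0.67 (adjusted p = 0.0092) became −1.12 (adjusted p = 0.51) when the proximal tubule was left out of the tubule mean, and −2.31 (adjusted p = 0.056) on flow cell D alone. miR-192-5p had values of 1414 and 761 in the glomerulus, against 21065, 26006 and 20807 in the proximal tubule, 2146, 4246 and 3401 in the thick ascending limb and 1238, 2298 and 1837 in the collecting duct. It overlapped the collecting duct, and its difference of −2.09 ± 0.45 (adjusted p = 7.0e-05) became −0.96 (adjusted p = 0.32) without the proximal tubule.

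In the collecting duct list, all 3 measured members (miR-31a-5p, miR-205 and miR-9a-5p) were called lower in the glomerulus, against 14.9% of all miRNAs. Of them 2 were separated, against 9.57% separated lower. The list was drawn up with earlier results of these libraries known, and the collecting duct is part of the tubule mean. These shares are therefore not independent of the values. miR-31a-5p, a miRNA of keratinocytes and other epithelia, was at 0 in all glomerulus runs, against 7.24, 3.15 and 4.02 in the proximal tubule, 21.4, 9.82 and 41.4 in the thick ascending limb and 257, 457 and 536 in the collecting duct. It was detected in every tubule library, but in the proximal tubule at only a few normalized reads. The floor was taken as 3 reads per library, a mean value of 1.28 over both glomerulus libraries. Their mean was then at least 326-fold lower than the collecting duct mean and 3.75-fold lower than the proximal tubule mean. Both tubule means were taken as measured. In rat 3 alone the floor was 1.83, so its bounds are weaker. The fitted difference of −5.32 ± 0.84 (adjusted p = 1.1e-08) depends on the pseudocount. Against the tubule mean without the collecting duct it was −3.71 (adjusted p = 0.0075).

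miR-205, which represses Zeb factors in skin and gland epithelia, had values of 8.73 and 5.97 in the glomerulus, against 41.2, 10.4 and 17.8 in the proximal tubule, 17.2, 53.3 and 21.4 in the thick ascending limb and 122, 201 and 161 in the collecting duct. The collecting duct stood far above the other regions, and the proximal tubule of rat 2 nearly reached the glomerulus. The difference of −2.46 ± 0.74 (adjusted p = 0.0086) became −1.59 (adjusted p = 0.27) without the collecting duct, and was also lost on flow cell D alone (−1.79, adjusted p = 0.17) and with quantile normalization (−1.86, adjusted p = 0.11). miR-9a-5p, a miRNA of the nervous system, had values of 0.896 and 0 in the glomerulus and 0.700, 0.976 and 6.69 in the proximal tubule, 5.74, 6.10 and 9.76 in the thick ascending limb and 57.1, 69.3 and 50.3 in the collecting duct. It overlapped the proximal tubule, and its difference of −2.99 ± 1.01 (adjusted p = 0.022) was −1.80 (adjusted p = 0.32) without the collecting duct and −2.15 (adjusted p = 0.28) with the glomerulus of rat 1 alone. It also did not pass without the proximal tubule of rat 3 (adjusted p = 0.079) or the thick ascending limb of rat 3 (adjusted p = 0.055), and in all 8 of 30 alternatives ended the call.

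A locus within Ppargc1b, the gene of a coactivator of mitochondrial genes, gave 3 of the lower columns. miR-3557-5p had values of 1484 and 600.2 in the glomerulus, against 5891, 7476 and 7887 in the proximal tubule, 4549, 2506 and 5433 in the thick ascending limb and 2498, 3362 and 2579 in the collecting duct. Both glomerulus libraries were lower than all tubule libraries and the proximal tubule was highest. The difference was −2.23 ± 0.45 (adjusted p = 1.8e-05), with −1.45 in rat 1 and −3.00 in rat 3. miR-3557-5p overlaps miR-378a-3p, which is not among the measured miRNAs, over 21 bases of the opposite strand. Its values could therefore hold reads of either. miR-3557-3p and miR-378a-5p lie on opposite strands of the same 22 bases and had identical values in every run, so that the 30 separated miRNAs hold 29 distinct sets of values. They were at 0 in all glomerulus runs, against 10.9, 6.80 and 9.90 in the proximal tubule, 3.44, 5.07 and 12.7 in the thick ascending limb and 3.77, 10.3 and 4.71 in the collecting duct. With the mean floor of both glomerulus libraries (1.28), their mean was at least 5.87-fold lower than the mean of the tubule regions as measured. This does not bound each library. In rat 3 the floor was 1.83, and the lowest tubule library had 3.44. The fitted difference of −2.88 ± 1.05 (adjusted p = 0.036) was lost with the glomerulus of rat 1 alone (−2.57, adjusted p = 0.22), and without the proximal tubule library of any rat or the thick ascending limb of rat 3, with adjusted p-values from 0.051 to 0.10. In all, 12 of 28 alternatives ended the call, among them flow cells A and D alone and a tubule mean without the proximal tubule or the thick ascending limb.

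Such strand pairs occur elsewhere among the members. Of 6 pairs of measured miRNAs that overlap on opposite strands, 4 had identical values in all runs, and 9 of the 30 separated miRNAs overlap an annotated miRNA on the other strand. Beside those already named these are miR-126a-5p, miR-31a-5p, miR-338-3p and miR-218a-5p. Whether the counting used strand is not given in the sources used here, so for each of them reads of the 2 strands cannot be told apart.

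miR-672-5p, an X-linked miRNA within Nexmif, had values of 30.7 and 0 in the glomerulus, against 173, 113 and 59.5 in the proximal tubule, 127, 75.3 and 134 in the thick ascending limb and 249, 248 and 299 in the collecting duct. It was at 0 in all runs of rat 3, and rat 1 lay under every tubule library. The difference was −4.78 ± 0.61 (adjusted p = 4.0e-13), with −2.50 in rat 1 and −7.07 in rat 3, and every alternative called it lower. miR-218a-5p, encoded within the axon guidance genes Slit2 and Slit3, had values of 1.14 and 0 against 2.15 to 24.4 (median 7.19). It was separated in the average over runs but on none of the 4 flow cells alone. Its difference of −2.71 ± 1.04 (adjusted p = 0.047) passed narrowly and was lost in 19 of 30 alternatives, among them the glomerulus of rat 1 alone (−2.06, adjusted p = 0.33). It was lost also without any proximal tubule library, the thick ascending limb of rat 2 or rat 3 or the collecting duct of rat 1 or rat 2, at adjusted p-values from 0.051 to 0.14.

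miR-30e-3p is the passenger strand of a miR-30 hairpin, a family studied for its role in podocytes. It had values of 159 and 114 in the glomerulus, against 273, 344 and 337 in the proximal tubule, 327, 252 and 389 in the thick ascending limb and 309.6, 347 and 195 in the collecting duct. Both glomerulus libraries were below the range, but the difference of −1.15 ± 0.51 (adjusted p = 0.10) did not pass, and relative to the median of all miRNAs it was −0.59. With the glomerulus of rat 3 alone it was called (−1.37, adjusted p = 0.014). As deposited, none of the 9 measured members of the miR-30 family passed. The guide strand miR-30a-5p had values of 4558 and 5195 against 2493 to 6616 (median 3999.6). The guide strand miR-30d-5p had 1214 and 912 against 549.7 to 989.9 (median 854). Their differences as deposited were 0.28 and 0.38, in that order. With median of ratios limma called miR-30a-5p (0.77, adjusted p = 0.036), miR-30d-5p (0.87, adjusted p = 0.011) and miR-30e-5p (0.82, adjusted p = 0.035) higher. They were also called when libraries were brought to the same total, and only miR-30e-5p of them with quantile normalization.

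miR-10a-5p, encoded in a Hox gene cluster, was the separated miRNA nearest to overlap, with a gap of 0.01. Its values were 37565 and 14049 in the glomerulus, against 37746, 39998 and 56750.0 in the proximal tubule, 70201, 56313 and 85747 in the thick ascending limb and 92718, 119558 and 81729 in the collecting duct. The glomerulus of rat 1 lay just under the proximal tubule of the same rat. The difference of −1.57 ± 0.51 (adjusted p = 0.016), or −1.01 relative to the median of all miRNAs, was −0.74 (adjusted p = 0.35) with the glomerulus of rat 1 alone. It did not pass without the proximal tubule of rat 3 (adjusted p = 0.079) or the thick ascending limb of rat 3 (adjusted p = 0.062). It also did not pass when the proximal tubule (adjusted p = 0.063), the thick ascending limb (adjusted p = 0.078) or the collecting duct (adjusted p = 0.12) was left out of the tubule mean. miR-10a-5p had the highest value of the 188 miRNAs in every library. Quantile normalization therefore gives it the same value in all libraries and cannot show a difference. The call was lost in 9 of 30 alternatives, quantile normalization included.

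Just outside the criterion were miR-24-3p, described above, and miR-181a-1-3p, with 7.87 and 18.4 in the glomerulus and 7.97 in the highest tubule library. On the lower side were miR-103-3p, with 102 and 44.8 against 98.4 in the lowest tubule library, and miR-328a-3p, with 120.4 and 81.4 against 114. In each of the 4 a single glomerulus library was inside the range of log2 values.

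limma called 12 miRNAs whose glomerulus libraries overlapped the tubule range, 1 higher (miR-126a-3p) and 11 lower. Beside miR-192-5p and miR-203a-3p, the smallest adjusted p-values were those of miR-199a-3p, miR-92b-3p and let-7g-5p. miR-199a-3p, a miRNA of fibroblasts and mesenchyme, had values of 43.3 and 5.68 in the glomerulus, against 91.4, 64.1 and 113 in the proximal tubule, 122, 34.8 and 117 in the thick ascending limb and 132, 117 and 64.1 in the collecting duct. The glomerulus of rat 1 lay above 1 tubule library, the thick ascending limb of rat 2. The difference was −2.69 ± 0.63 (adjusted p = 0.00033), and −1.39 (adjusted p = 0.15) with the glomerulus of rat 1 alone.

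miR-92b-3p, a miRNA of neural progenitors, had values of 41.8 and 39.7 in the glomerulus, against 39.3, 75.9 and 74.7 in the proximal tubule, 252, 243 and 202 in the thick ascending limb and 376, 597 and 811 in the collecting duct. The glomerulus overlapped through the proximal tubule of rat 1, and the difference of −2.20 ± 0.55 (adjusted p = 0.00076) became −1.42 (adjusted p = 0.17) without the collecting duct. let-7g-5p, of the family that restrains growth genes, had values of 537 and 129 in the glomerulus, against 1313, 1176 and 1706 in the proximal tubule, 502.8, 498 and 702 in the thick ascending limb and 523, 875 and 440.4 in the collecting duct. The proximal tubule was high, and rat 1 overlapped the other regions. The difference of −1.52 ± 0.47 (adjusted p = 0.011) was −0.38 (adjusted p = 0.62) with the glomerulus of rat 1 alone. It was −1.34 (adjusted p = 0.055) without the proximal tubule of rat 3 and −1.33 (adjusted p = 0.054) without the thick ascending limb of rat 3. Without the proximal tubule in the tubule mean it was −1.02 (adjusted p = 0.30), and 6 of 30 alternatives ended the call.

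The difference was then set out within each animal, glomerulus minus the mean of the 3 tubule regions of the same rat. All 12 higher miRNAs were above 0 and all 18 lower ones below 0 in both rats, which the criterion requires for libraries beyond the whole range. The sizes differed most for miRNAs at 0 in the glomerulus of rat 3, the less deeply sequenced library: −2.50 in rat 1 and −7.07 in rat 3 for miR-672-5p, −1.60 in rat 1 and −6.78 in rat 3 for miR-200a-3p and −3.90 in rat 1 and −7.87 in rat 3 for miR-3553. They were close for miR-375-3p (−4.34 in rat 1 and −4.53 in rat 3), miR-31a-5p (−5.16 in rat 1 and −5.47 in rat 3) and miR-145-5p (1.66 in rat 1 and 1.56 in rat 3).

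**Figure D2:**
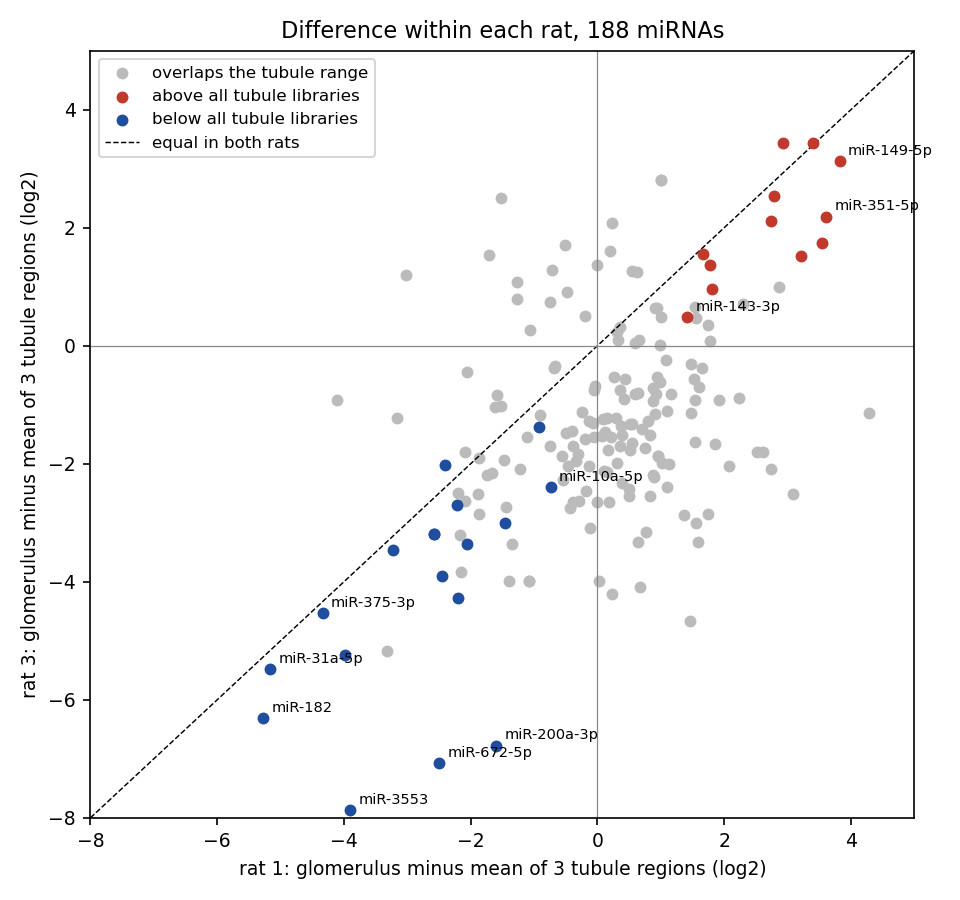
Difference between glomerulus and the mean of the 3 tubule regions (log2) in rat 1 (x axis) and in rat 3 (y axis) for the 188 miRNAs. Red and blue points are the 12 and 18 separated miRNAs, grey points overlap the tubule range, and points under the dashed line had a lower difference in rat 3, as for miR-672-5p at −2.50 and −7.07.

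The values of miRNAs known from the cell types of the labelled regions were also summed. These markers were chosen with earlier results of these data known, so the sums are no independent check of the labels. Endothelial miR-126a-3p and miR-126a-5p summed to 4299 to 6290 in the glomerulus and to 1158 to 3170 in the tubules. miR-126a-5p made up most of the sum, and miR-126a-3p taken alone overlapped, with 302 in the glomerulus of rat 3 and 313 in the highest tubule library. The third measured member of the endothelial list, miR-221-3p, had 26.1 and 0.483 in the glomerulus and 0 to 60.0 (median 31.0) in the tubules, so that the glomerulus libraries overlapped the tubule range. miR-143-3p and miR-145-5p, for mesangium and smooth muscle, summed to 10382 to 16388 in the glomerulus and to 4781 to 8080 in the tubules. Neither of them passed limma. In the 2 sums the glomerulus libraries were above all tubule libraries. miR-126a-5p and miR-143-3p, which made up most of them, were already separated, so the sums add no separate support. miR-199a-3p, a miRNA of fibroblasts and mesenchyme, was not among the markers summed and went the other way. It had 43.3 and 5.68 in the glomerulus and 34.8 to 132 in the tubules. limma called it lower (−2.69, adjusted p = 0.00033). No miRNA defining podocytes alone was on the lists.

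The 4 measured general epithelial markers of the miR-200 family summed to 36.1 to 128 in the glomerulus and to 412 to 1595 in the tubules, with none at 0 in the glomerulus of rat 1 and miR-200a-3p at 0 in that of rat 3. The proximal tubule markers miR-192-5p and miR-194-5p summed to 777 to 1424 in the glomerulus, against 1259 to 26367 in the tubules, with the glomerulus of rat 1 inside and that of rat 3 under the tubule range. Of 8 blood cell markers 2 were measured (miR-142-5p and miR-150-5p), and they summed to 78.7 to 117 in the glomerulus and 24.1 to 118 in the tubules. The part of tubule or blood cells in the differences above was not tested.

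Over the lists, the shares called were set beside the 14.9% lower and 4.79% higher of all miRNAs. The list of miR-182, miR-183 and miR-96 had 2 of 3 members lower (median −5.79), miR-375 and miR-203 had 3 of 3 lower (median −4.24), that of miR-192, miR-194 and miR-215 had 2 of 2 lower (median −2.15), that of miR-199 and miR-214 had 1 of 2 lower (median −1.58) and the let-7 family had 2 of 10 lower (median −0.76). The list of the miR-351 cluster had 2 of 3 higher (median 2.64), and both measured members of the list of miR-149 and miR-138 were higher (median 3.45). The endothelial list had 2 of 3 higher (median 1.50); its other member, miR-221-3p, did not pass (−1.60 ± 0.85, adjusted p = 0.18). In the list of miR-10 and miR-196 1 of 7 was lower. None passed among 9 members of miR-30, 5 of miR-99/100 and miR-125, 5 of the imprinted Dlk1-Dio3 cluster, 3 of miR-29, 3 of the blood cell list and miR-204-5p. The lists were drawn up with earlier results of these libraries known, so their counts are not independent of the values.

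**Figure D3:**
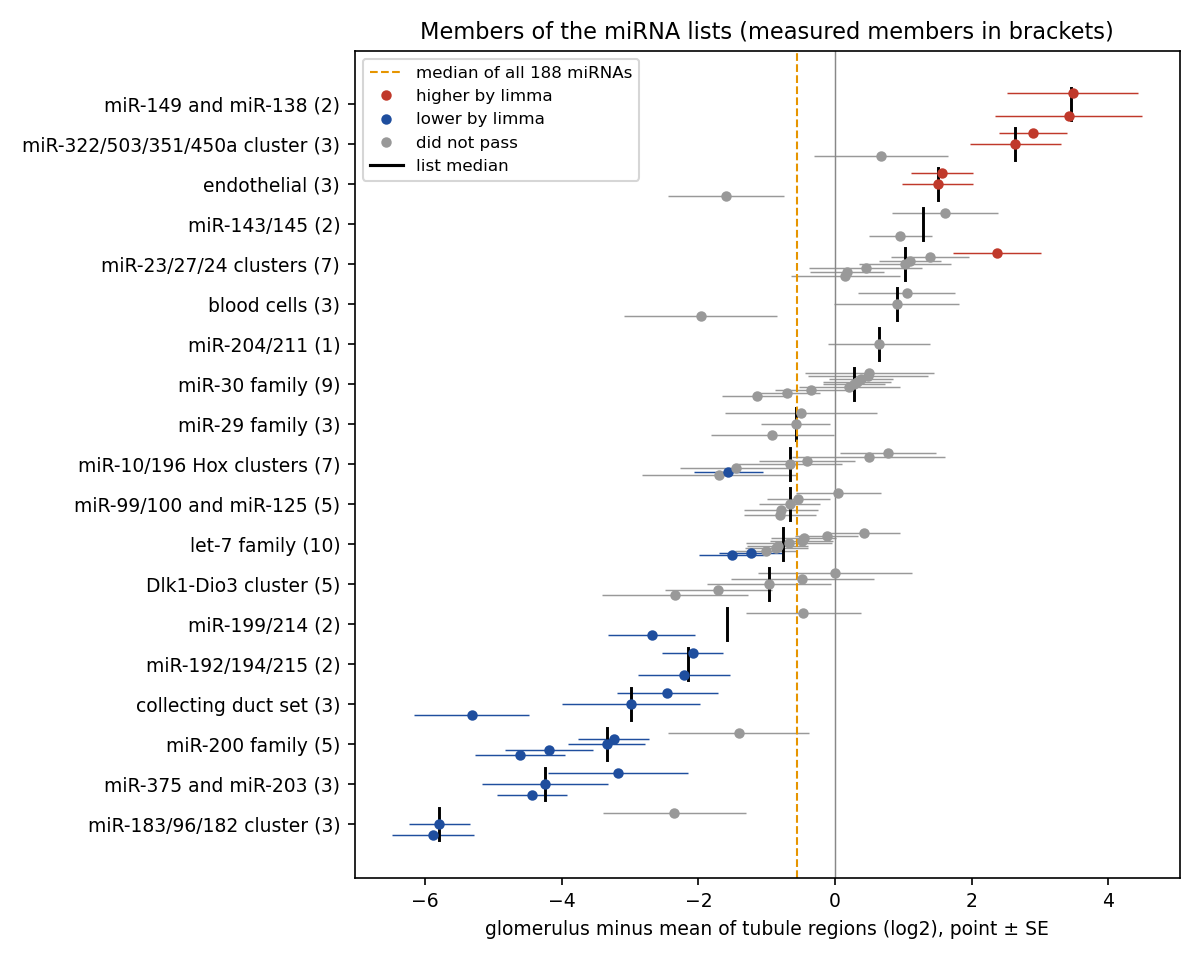
Difference between glomerulus and the mean of the tubule regions (log2, point ± SE) for each measured member of 19 lists, with the list median as a black bar and the median of all 188 miRNAs (−0.56) dashed. Red and blue points passed limma as higher and lower, and grey points did not pass.

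Because the summed values of the glomerulus libraries differed so much, the libraries were also brought to a common scale in 3 further ways, and miRNAs were ranked within each library, which needs no scale. The median difference of all miRNAs moved from −0.56 as deposited to −0.20 with median of ratios, −0.08 with the same total and 0.05 with quantile normalization. The split of limma calls moved with it, from 9 higher and 28 lower to 25 and 31, 31 and 28, and 27 and 19, in that order. Of the 12 higher miRNAs, 11 stayed beyond the tubule range on all 4 of these scales, and miR-143-3p left it with quantile normalization and ranks. Of the 18 lower ones, 10 stayed on all 4: miR-182, miR-3553, miR-375-3p, miR-429, miR-200b-3p, miR-200a-3p, miR-672-5p, miR-3557-5p and the identical miR-3557-3p and miR-378a-5p.

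The lower miRNAs miR-194-5p, miR-205 and miR-30e-3p were beyond the range on none of the 4 other scales. miR-141-3p was below it on 1 of them, the same total. miR-203b-3p and miR-218a-5p left it with quantile normalization and ranks. miR-10a-5p, highest in every library, could not be separated by either of these 2 scales. Not separated as deposited but above the range on all 4 were miR-24-3p, miR-126a-3p, miR-146a-5p, miR-196b-5p and miR-455-5p, and below it miR-199a-3p. These were singled out after their values were seen. miR-146a-5p, a brake on inflammatory signalling, had values of 1056 and 516 against 286 to 634 (median 343) in the tubules, and miR-455-5p had 13.3 and 7.77 against 0 to 9.62 (median 2.31). As deposited neither passed (0.93 ± 0.48, adjusted p = 0.17 and 1.94 ± 1.09, adjusted p = 0.20, in that order).

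**Figure D4:**
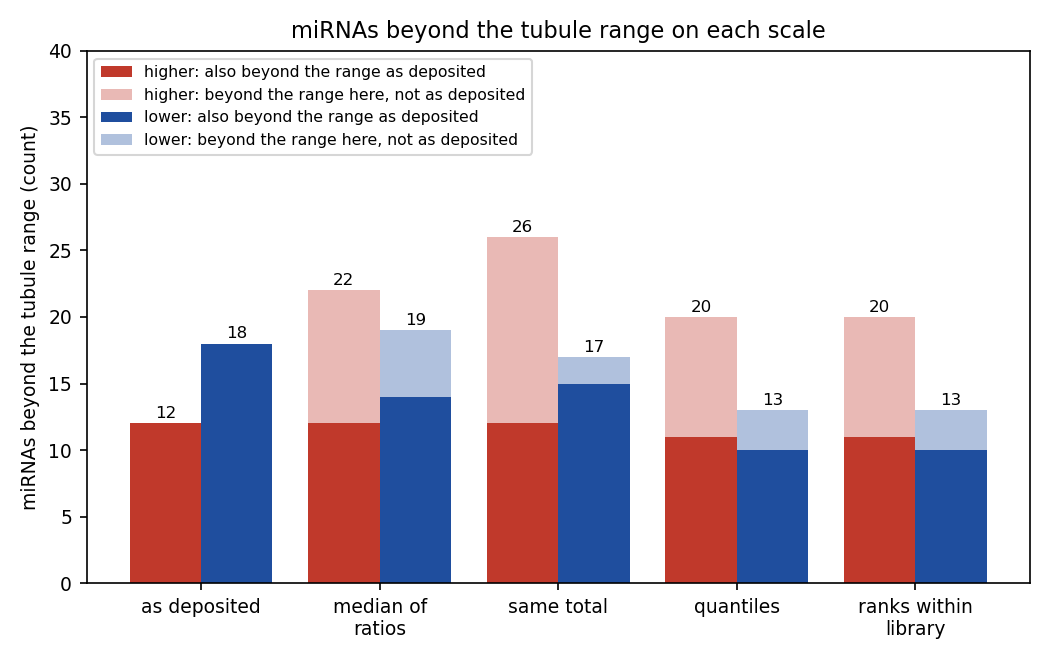
Number of miRNAs above (red) or below (blue) all 9 tubule libraries in both glomerulus libraries, as deposited and on 4 other scales. Full colour counts those separated as deposited, where 11 or 12 of 12 higher and 10 to 15 of 18 lower remained, and pale colour those beyond the range on the other scale but not as deposited.

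The flow cells are repeat runs of the same libraries. Taken alone, each of the 4 kept the same side for 8 of the 12 higher and 10 of the 18 lower miRNAs. Among the rest, miR-218a-5p was beyond the range on none of the 4 and miR-184 on 1. miR-195-5p, miR-194-5p, miR-205, miR-203b-3p, miR-200a-3p and miR-10a-5p were beyond it on 2. Of 22 miRNAs at 0 in every glomerulus run, 18 were at 0 in some tubule library as well and overlapped, and 4 (miR-31a-5p, miR-203b-3p, miR-3557-3p and miR-378a-5p) were separated. At this depth a value of 0 in the glomerulus does not show that a miRNA is absent there.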

How the data were processed

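Small RNA libraries (TruSeq, 50 bp single reads) were made from laser-captured regions of 3 rats and run on 4 flow cells each, per the labels' protocols. The deposited table holds a signal for 188 mature miRNAs, which is the authors' read count after TMM normalization and a filter on low counts, per the name of the table. Tools named in the submitters' processing notes are Bowtie 1.0.0, Bowtie2 2.2.5 and Partek 6.0, and the build is rn6. Whether strand was used in counting is not given in the sources used here. Rows were matched to samples by rat and region, and the glomerulus row of rat 3 was taken as the library not marked as removed. No column was left unmapped.

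From these values log2(value + 1) was averaged over the 4 runs of a library, so that 11 libraries entered. limma 3.58.1 (R 4.3.3; lmFit, contrasts.fit, eBayes with trend) fitted region and rat, and p-values are two-sided and adjusted by Benjamini-Hochberg over 188 miRNAs. The fit leaves 5 residual degrees of freedom and found no spread beyond the trend. A variance is thus shared by miRNAs of similar level, and very small p-values rest on it. The rat is a block because regions of a rat come from the same animal. Estimated as a random effect, the correlation between libraries of a rat was −0.158. A fold on the log2(value + 1) scale understates changes of low miRNAs.

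Reads were estimated from the value of 1 read in each run, and of the values up to 30 reads, 88.3% to 99.0% lay within 0.03 of a whole read. Whole reads were not recovered for all, so no count test was run. Floors of 3 reads per library cover counting error only, since PCR copies are not independent molecules. In 20 simulated data sets 40 of 188 miRNAs were changed. limma recovered 2.12% of those changed by 2-fold, 45.9% at 4-fold, 76.6% at 8-fold and 93.2% at 16-fold. Of its calls 10.5% were false at 2-fold, and 3.01% to 3.62% at 4-fold to 16-fold. The simulated noise was independent between miRNAs, without a shift shared by a library or a rat. These shares therefore need not hold for the libraries here, where the glomerulus libraries differed as a whole.

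Every miRNA beyond the tubule range was named, together with listed miRNAs, the 5 of smallest adjusted p among other calls and those nearest the criterion. The comparison, the members and the lists were chosen with earlier results of these data known. Alternatives were other pseudocounts, filters, fits, scalings, single flow cells, leaving out libraries or regions, and, added after the values were seen, ranks within each library and identical columns counted once. Sequences and positions are from RefSeq (GRCr8), matched by name, and no rn6 coordinates were used.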

Additional observations from a re-analysis of the deposited data

How the results depend on the processing

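Over 30 alternatives with a limma fit, 94 miRNAs gave 2505 differences on the same side of the threshold as in the fit used, 216 that no longer passed and 83 that newly passed. A miRNA that a filter or the merging of identical columns removed has fewer. The sign changed in 83 differences of 33 miRNAs, none of them separated. In 1 of these the miRNA had passed limma in either fit, let-7b-5p, whose value was 0.18 if the rat 3 glomerulus was left out and −2.65 if the rat 1 glomerulus was. The counts of 9 higher and 28 lower calls were 1 and 11 with array weights. Flow cell D alone gave 16 lower calls. Median of ratios, the same total and quantile normalization gave 25, 31 and 27 higher calls, and 22, 26 and 20 miRNAs above all tubule libraries in place of 12. Ranks within libraries also gave 20. Without the proximal tubule in the tubule mean limma called 5 higher and 19 miRNAs were above the remaining range; without the collecting duct 5 were called higher. Leaving out each library in turn gave 3 to 11 higher and 15 to 69 lower calls, with 12 to 37 miRNAs above and 18 to 72 below all tubule libraries. Without the replicate block for the rat, limma called 13 higher and 36 lower, among them miR-143-3p, miR-195-5p, miR-23a-3p and miR-30e-3p. The causes were not tested. Only 2 glomerulus libraries limit every comparison, and the shallower of them, from rat 3, limits what can be detected for miRNAs of low value.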
